A study of Mus musculus with 3 samples.

Results

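Junctions that joined the 5′ part of the immunoglobulin heavy chain switch region Sμ to sequence outside the heavy chain locus (IgH) were examined in activated mouse B cells. They were taken as every line that the authors assigned to their class outside IgH. Below, IgH means the span that the authors' IgH lists cover, which may not be the whole locus. The count sheets held 370 such junctions among 2995 in the 3 libraries, namely 125 of 842 (DNA-PKcs-/- replicate 5), 122 of 1681 (DNA-PKcs PQR/PQR replicate 1) and 123 of 472 (DNA-PKcs PQR/PQR replicate 2). Coordinates and reads were used for 320 of the 370, that is 106, 115 and 99 junctions, and the other 50 lines were not used here. Those 50 were not spread evenly over junction classes, since 23 of the 24 unused in PQR/PQR replicate 2 were insertions, so classes are given from the count sheets wherever possible.

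All libraries came from splenic B cells depleted of CD43+ cells, of mice of the 129 strain with preassembled IgH and Igκ loci. Culture lasted 4 days, with 1 ng/mL of anti-CD40 and 20 ng/mL of IL-4, which drive switching to Sγ1 and Sε. DNA-PKcs-/- cells lack the catalytic subunit of DNA-dependent protein kinase, and PQR/PQR cells are homozygous for an allele in which a cluster of its phosphorylation sites is altered. The labels name neither the number nor the age of the mice and do not say whether libraries come from separate animals, so the spread between libraries may be technical. Wild-type cells are not analysed here, and libraries from other cultures of the same genotypes were seen only within the authors' pools. With 1 library against 2, the smallest exact p over samples is 0.333, so every test below compares junctions of libraries and not genotypes.

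In class switch recombination, the deaminase AID starts breaks in Sμ and in a downstream switch region, and end joining connects both. A break in Sμ that is joined elsewhere instead gives a translocation or a long deletion or inversion, and oncogenes join IgH in this way in B cell lymphomas. The method (high-throughput genome-wide translocation sequencing) extends a primer in Sμ, the bait, across the join into the partner, the prey. Bases that fit both the bait and the prey at the join are called microhomology (MH), bases that fit neither are an insertion, and a join with neither is direct. DNA-PKcs acts in classical end joining, which leaves direct joins and short MH, while the alternative routes use longer MH.

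The bait began at base 114669257 of chromosome 12 in mm9 and was read on the minus strand. Its first 80 bases, chr12:114669178-114669257, are shown because most baits joined with long MH, as described below, ended in its capitals, which mark bases 22 to 40 and 45 to 72.
Sμ bait: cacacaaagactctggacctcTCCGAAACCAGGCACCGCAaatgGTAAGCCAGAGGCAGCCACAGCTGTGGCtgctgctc

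The first 21 bases are the nested primer. The shortest bait among the 320 junctions was 31 bp.

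Reads of each class are shown to let the classes be seen side by side. Each starts with 20 bases of bait, followed in capitals by the bases of MH or of the insertion, and then by up to 30 bases of prey in lower case. For direct joins, the prey starts at base 21 with no capitals. The direct join with the longest prey of each library read as follows.
DNA-PKcs-/- replicate 5, chromosome 1 at 182260860, minus strand: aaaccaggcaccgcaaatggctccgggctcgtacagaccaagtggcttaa
PQR/PQR replicate 1, chromosome 15 at 74788582, plus strand: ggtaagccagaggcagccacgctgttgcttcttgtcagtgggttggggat
PQR/PQR replicate 2, chromosome 11 at 87568904, minus strand: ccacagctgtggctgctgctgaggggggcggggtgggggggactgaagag

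Among the listed junctions, the one with the longest MH of each library read as follows.
DNA-PKcs-/- replicate 5, chromosome 13 at 37668083, minus strand: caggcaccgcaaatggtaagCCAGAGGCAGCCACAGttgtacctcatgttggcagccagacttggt
PQR/PQR replicate 1, chromosome 7 at 17714893, minus strand: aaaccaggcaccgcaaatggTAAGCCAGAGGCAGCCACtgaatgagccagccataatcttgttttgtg
PQR/PQR replicate 2, chromosome 16 at 21595444, minus strand: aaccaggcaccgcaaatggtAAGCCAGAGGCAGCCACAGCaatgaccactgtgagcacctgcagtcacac

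The listed junction with the longest insertion of each library is shown next. Lines that the authors put in a separate sheet of longer insertions or MH are not among these.
DNA-PKcs-/- replicate 5, chromosome 9 at 60721356, minus strand: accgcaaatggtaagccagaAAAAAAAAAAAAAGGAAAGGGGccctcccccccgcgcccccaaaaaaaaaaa
PQR/PQR replicate 1, chromosome 8 at 44588329, plus strand: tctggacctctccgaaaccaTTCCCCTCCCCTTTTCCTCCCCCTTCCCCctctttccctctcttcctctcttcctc
PQR/PQR replicate 2, chromosome 7 at 108268598, plus strand: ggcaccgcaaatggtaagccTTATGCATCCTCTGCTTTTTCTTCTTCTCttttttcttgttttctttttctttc

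The MH reads of the 3 libraries shared most of their capitals although the preys came from chromosomes 13, 7 and 16. The inserted bases were purines alone in the DNA-PKcs-/- read and pyrimidines alone in that of PQR/PQR replicate 1.

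Junctions outside IgH were 14.8% of all junctions in DNA-PKcs-/- replicate 5 (95% Wilson interval 12.6 to 17.4), 7.26% in PQR/PQR replicate 1 (6.11 to 8.60) and 26.1% in PQR/PQR replicate 2 (22.3 to 30.2). The DNA-PKcs-/- library lay between the PQR/PQR libraries. It differed from both, with adjusted p = 4.9e-08 and 6.5e-06, but in opposite directions, and between the PQR/PQR libraries the adjusted p was 3.2e-24 (two-sided Fisher's exact test, Benjamini-Hochberg over 24 tests between libraries). No difference of the DNA-PKcs-/- library in 1 direction from both PQR/PQR libraries was therefore called for this share. By their read names, PQR/PQR replicate 2 was sequenced in a run of its own, and the other libraries shared one.

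The absolute numbers outside IgH were nearly equal, 125, 122 and 123, while the numbers within IgH were 717, 1559 and 349. On chromosomes other than 12, the libraries held 109, 108 and 115 junctions. The authors' pools hold these libraries and others. Taking them out, the DNA-PKcs-/- pool had 562 of 11820 junctions outside IgH (4.76%, 4.38 to 5.15), and 403 of 11820 on other chromosomes (3.41%). The rest of the PQR/PQR pool had 16 of 2014 (0.794%, 0.490 to 1.29), and 0 of 2014 were on another chromosome, which allows a share of up to 0.149%. Thus all 223 junctions of the PQR/PQR pool on other chromosomes came from the 2 libraries. Whether the authors treated the other PQR/PQR libraries differently is not given in the sources used here.

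Long MH was more frequent outside IgH than within it in each library, but MH of any length was not. Any MH was found in 61.60% of junctions outside and 74.62% within IgH in DNA-PKcs-/- replicate 5. The shares were 64.75% and 60.87% in PQR/PQR replicate 1 and 40.65% and 63.04% in PQR/PQR replicate 2, and these differences were not tested. MH of 4 bp or more made up 33.6% of junctions outside IgH and 19.2% within IgH in DNA-PKcs-/- replicate 5 (42 of 125 and 138 of 717), 33.6% and 7.89% in PQR/PQR replicate 1 (41 of 122 and 123 of 1559), and 26.0% and 10.3% in PQR/PQR replicate 2 (32 of 123 and 36 of 349). The difference passed in all 3 libraries, with adjusted p = 8.4e-04, 1.7e-13 and 1.4e-04 (two-sided Fisher's exact test, Benjamini-Hochberg over 15 tests within libraries). MH of 8 bp or more, a limit chosen after the data had been seen, was also more frequent outside IgH. Its share was 19.2% against 1.39% in DNA-PKcs-/- replicate 5, 12.3% against 0.706% in PQR/PQR replicate 1 and 15.4% against 0.287% in PQR/PQR replicate 2. The adjusted p was at most 2.1e-10 in the 3 libraries (two-sided Fisher's exact test, Benjamini-Hochberg over 36 tests chosen after the data had been seen). Between libraries, the share with MH of 4 bp or more outside IgH did not pass in any pair, with adjusted p from 0.32 to 1.00. Among the other libraries of the DNA-PKcs-/- pool, MH of 4 bp or more made up 156 of 562 junctions outside IgH (27.8%, 24.2 to 31.6) and 2522 of 11258 within it (22.4%, 21.6 to 23.2).

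**Figure D1:**
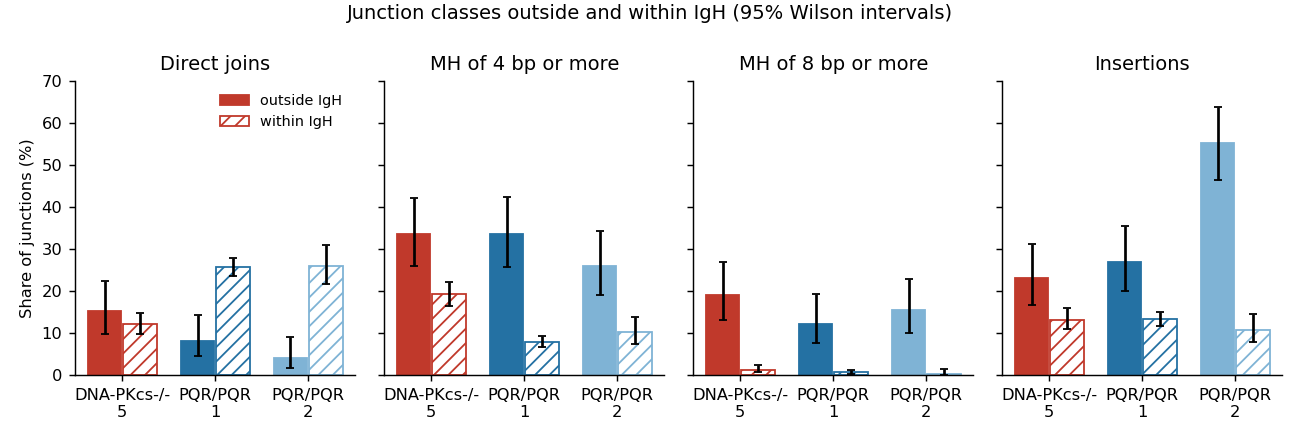
Shares of direct joins, MH of 4 bp or more, MH of 8 bp or more and insertions among junctions outside IgH (filled bars) and within IgH (hatched bars) in each library, in percent, with 95% Wilson intervals as error bars. The filled bars exceed the hatched ones for both MH limits and for insertions in all 3 libraries, while direct joins were 15.2% against 12.1% in DNA-PKcs-/- replicate 5 but 8.20% against 25.8% and 4.07% against 26.1% in the PQR/PQR libraries.

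Direct joins were 19 of 125 outside IgH and 87 of 717 within it in DNA-PKcs-/- replicate 5, a difference that did not pass (Fisher's exact test, adjusted p = 0.41). In PQR/PQR replicate 1 they were 10 of 122 outside IgH and 402 of 1559 within it, and in PQR/PQR replicate 2 they were 5 of 123 and 91 of 349. Both shares were lower outside IgH, with differences of -17.59 and -22.01 percentage points and adjusted p = 6.5e-06 and 2.4e-08 (the same Fisher's exact tests). Among junctions outside IgH alone, direct joins were 15.2%, 8.20% and 4.07%. By Fisher's exact test, DNA-PKcs-/- replicate 5 exceeded PQR/PQR replicate 2 with adjusted p = 0.017, while against PQR/PQR replicate 1 the adjusted p was 0.30. The other libraries of its pool had 88 direct joins among 562 junctions outside IgH (15.7%) and 1294 among 11258 within IgH (11.5%).

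The place where the bait ended was read for the 57 listed junctions with MH of 8 bp or more. Counting bait bases from the primer's first base, 17 of 57 ended their bait between bases 31 and 40 and 30 of 57 between bases 50 and 72, both within the capitals shown above. The second stretch took 16 of 19 in PQR/PQR replicate 2. The first took 11 of 24 in DNA-PKcs-/- replicate 5, 7 of them at base 36. For PQR/PQR replicate 1 the numbers were 3 of 14 in the first and 7 of 14 in the second stretch. The preys of these junctions were long, since 51 of 57 had 50 bp or more, and 3 of 57 lay on chromosome 12. Other listed junctions outside IgH without tracts, a class of prey described below, ended their bait between bases 50 and 72 in 30.8%, 26.7% and 38.9% in the 3 libraries, and between bases 31 and 40 in 36.9%, 29.3% and 30.6%. The counts for MH of 8 bp or more came to 29.2% in DNA-PKcs-/- replicate 5 and 84.2% in PQR/PQR replicate 2 for the second stretch, and to 45.8%, 21.4% and 15.8% in the 3 libraries for the first. The second stretch thus held a larger share of the long MH in the PQR/PQR libraries, and the first stretch in DNA-PKcs-/- replicate 5. Baits joined to Sγ1 or Sε ended between bases 50 and 72 in 39.0%, 37.6% and 37.6% of junctions in the 3 libraries, and between bases 31 and 40 in 14.7%, 17.7% and 23.1%. These stretches were chosen after the data had been seen and carry no test.

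Baits were often short. A bait of at most 40 bp, which leaves 19 bases past the primer, was found in 44.3% of listed junctions outside IgH and 14.7% of Sγ1 and Sε junctions in DNA-PKcs-/- replicate 5, and in 37.4% and 17.7% in PQR/PQR replicate 1. Both differences passed, with adjusted p = 6.9e-09 and 9.3e-06 (two-sided Fisher's exact test, chosen after the data had been seen). The shares were 19.2% and 23.1% in PQR/PQR replicate 2 (exact adjusted p = 0.65). Among junctions outside IgH, the libraries of the shared run, DNA-PKcs-/- replicate 5 and PQR/PQR replicate 1, were 25.1 and 18.2 percentage points above PQR/PQR replicate 2 (exact adjusted p = 4.5e-04 and 0.0097).

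Mean MH among listed junctions with any MH was 5.42 ± 0.466 bp in DNA-PKcs-/- replicate 5 (SEM over 73 junctions), 4.77 ± 0.461 bp in PQR/PQR replicate 1 (77 junctions) and 6.69 ± 0.710 bp in PQR/PQR replicate 2 (49 junctions). In Sγ1 and Sε the same means were 2.83 ± 0.108, 2.13 ± 0.0571 and 2.04 ± 0.109 bp. PQR/PQR replicate 2 had the highest mean outside IgH and the lowest in Sγ1 and Sε.

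Insertions were more frequent outside IgH. They made up 23.2% of junctions outside IgH and 13.2% within it in DNA-PKcs-/- replicate 5 (29 of 125 and 95 of 717), 27.0% and 13.3% in PQR/PQR replicate 1 (33 of 122 and 208 of 1559), and 55.3% and 10.9% in PQR/PQR replicate 2 (68 of 123 and 38 of 349). All 3 differences passed, with adjusted p = 0.0081, 2.2e-04 and 9.6e-21 (two-sided Fisher's exact test). PQR/PQR replicate 2 had more insertions outside IgH than either other library (exact adjusted p = 2.4e-06 and 4.3e-05), whereas DNA-PKcs-/- replicate 5 against PQR/PQR replicate 1 did not pass (exact adjusted p = 0.67). Listed insertions had a median of 6 bp in DNA-PKcs-/- replicate 5, 12 bp in PQR/PQR replicate 1 and 13 bp in PQR/PQR replicate 2, against 3, 2 and 1.5 bp in Sγ1 and Sε. Without tracts, the preys described next, the medians outside IgH were 8.5, 5 and 3 bp over 8, 5 and 5 junctions, with means of 9.5, 9.4 and 6.4 bp. These junctions are too few to order the libraries.

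Most inserted junctions carried one kind of prey. A prey was called a tract where at least 90% of its aligned bases, read from the join, were pyrimidines or at least 90% were purines, a rule set after the data had been seen. Tracts made up 17 of 106 listed junctions in DNA-PKcs-/- replicate 5 (16.0%), 27 of 115 in PQR/PQR replicate 1 (23.5%), while PQR/PQR replicate 2 had 44 of 99 (44.4%). In Sγ1 and Sε there were 0 among 333, 1059 and 221 preys, which allows shares of up to 0.901%, 0.283% and 1.36%. No test is given, since the rule was set on these preys. Of the 95 listed insertions, 77 had a tract as prey, against 2 of 26 direct joins and 2 of 111 junctions with MH of 4 bp or more. The lists gave no total read length for 87 of the 88 tracts, against 7 of the 232 other preys. This length was also missing for 80 of the 95 insertions and for 3 of the 111 junctions with MH of 4 bp or more. Why it is missing is not stated, and its link to tracts and insertions was not tested. Of the 44 tracts in PQR/PQR replicate 2, 41 were pyrimidine tracts and 3 purine tracts, while DNA-PKcs-/- replicate 5 had 6 and 11 and PQR/PQR replicate 1 had 7 and 20.

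Among listed junctions, insertions were 21 of 106, 29 of 115 and 45 of 99 outside IgH and 26 of 333, 145 of 1059 and 24 of 221 in Sγ1 and Sε. Without tracts, listed insertions were 8 of 89 junctions outside IgH in DNA-PKcs-/- replicate 5 (8.99%), 5 of 88 in PQR/PQR replicate 1 (5.68%), while PQR/PQR replicate 2 had 5 of 55 (9.09%). In Sγ1 and Sε they were 7.81%, 13.7% and 10.9%. No test is given, since the tract rule was set on these preys and removed junctions outside IgH alone, most of them insertions. The count sheets hold 8, 4 and 23 more insertions outside IgH whose preys were not read, so their part in the higher share outside IgH was not tested. MH of 4 bp or more made up 44.9%, 43.2% and 56.4% of the junctions without tracts.

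**Figure D2:**
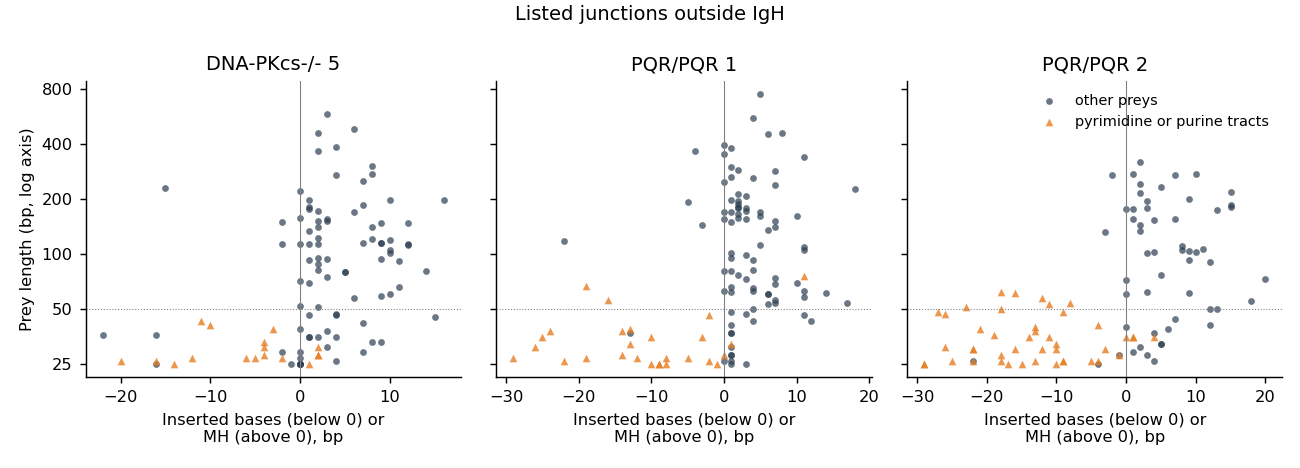
Prey length in bp on a log axis against the bases inserted (negative) or shared as MH (positive) for each listed junction outside IgH, with the 106, 115 and 99 junctions in 1 panel per library. Orange triangles are pyrimidine or purine tracts, which lie mostly left of 0 and below the dotted line at 50 bp, and other preys lie mostly right of 0.

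Preys outside IgH were short. In DNA-PKcs-/- replicate 5 the median was 77.5 bp with quartiles of 33 and 141 bp, in PQR/PQR replicate 1 it was 68 bp (37 and 169), and in PQR/PQR replicate 2 it was 48 bp (30 and 106). The medians in Sγ1 and Sε were 129, 156 and 112 bp. A prey under 50 bp was found in 41.5%, 34.8% and 51.5% of junctions outside IgH and in 13.8%, 11.0% and 18.1% of Sγ1 and Sε junctions. The differences of 27.7, 23.8 and 33.4 percentage points passed in all libraries, with adjusted p of at most 1.7e-08 (two-sided Fisher's exact test). Tracts were 78 of the 135 preys under 50 bp and 10 of the 185 longer ones. Without tracts, the shares under 50 bp were 30.3%, 18.2% and 25.5%, with a mean difference from Sγ1 and Sε of 10.4 points. No test is given for it, since the tract rule was set on these preys.

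Lower-case letters in the mm9 bases around the prey break, which usually mark repeats, were read from the files, although the files do not state their meaning. They made up more than 50% of the 20 bases in 52.8%, 47.0% and 50.5% of junctions, and no pair of libraries passed (exact adjusted p from 0.53 to 0.85). Tracts were mostly lower case in 63 of 88 and other preys in 97 of 232. The letters AGCT, which read the same on both strands and are frequent in switch regions as a preferred AID target, were found in these 20 bases in 7.55%, 8.70% and 7.07% of junctions outside IgH. In Sγ1 and Sε they were found in 29.4%, 41.5% and 39.4%. No test is given, since these letters are frequent in switch regions wherever a break lies. Of all stretches of 20 bases in the RefSeq promoter windows, 8.61% held AGCT.

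Preys were on both strands. The plus strand held 56 of 106 preys in DNA-PKcs-/- replicate 5 (52.8%, 43.4 to 62.1), 68 of 115 in PQR/PQR replicate 1 (59.1%, 49.99 to 67.7), while PQR/PQR replicate 2 had 43 of 99 (43.4%, 34.1 to 53.3). No library passed against an even split (exact binomial test, adjusted p = 0.63, 0.077 and 0.26), and no pair of libraries passed (Fisher's exact test, adjusted p from 0.084 to 0.53).

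Junctions outside IgH were found on every autosome and on chromosome X, and 1 lay on an unplaced contig. In DNA-PKcs-/- replicate 5 the leading chromosomes were 12 with 16 junctions, 2 with 8, and 9 and 11 with 7 each. The leaders in PQR/PQR replicate 1 were 12 with 12 junctions and 3, 4, 8 and 18 with 9 each. Those in PQR/PQR replicate 2 were 10 with 10 junctions, 1 with 9, and 2, 11 and 12 with 8 each. By the count sheets, chromosome 12 held 16 of 125 (12.8%, 8.03 to 19.8), 14 of 122 (11.5%, 6.96 to 18.3) and 8 of 123 (6.50%, 3.33 to 12.3), and no pair passed (exact adjusted p from 0.32 to 0.88). Among the other DNA-PKcs-/- libraries the share was 159 of 562 (28.3%, 24.7 to 32.2).

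Classes on chromosome 12 were set against those on the other chromosomes, and none of the differences passed. Preys under 50 bp were 4 of 16, 3 of 12 and 3 of 8 on chromosome 12, against 40 of 90, 37 of 103 and 48 of 91 elsewhere. Insertions were 0 of 16, 2 of 12 and 2 of 8, against 21 of 90, 27 of 103 and 43 of 91. MH of 4 bp or more was found in 4 of 16, 3 of 12 and 1 of 8, against 36 of 90, 36 of 103 and 31 of 91. The 9 comparisons had adjusted p from 0.079 to 0.79 (two-sided Fisher's exact test, chosen after the data had been seen), and each share was lower on chromosome 12. The 16, 12 and 8 junctions there limit the precision.

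The authors' IgH lists ran from base 114419831 to base 114770601 of chromosome 12, and no junction outside IgH lay between these limits. No annotation in mm9 was used, so whether junctions beyond these limits lie in other parts of the heavy chain locus was not checked. The nearest ones were at 114366218, in DNA-PKcs-/- replicate 5, and at 114831014, in PQR/PQR replicate 1. Of the 36 listed chromosome 12 junctions, 7 lay within 1 Mb of the bait break. Those of DNA-PKcs-/- replicate 5 were at 114366218 on the minus strand, with MH of 2 bp, and at 115438669 on the plus strand, with MH of 1 bp. PQR/PQR replicate 1 had 4, at 114096508 on the minus and at 114097007 on the plus strand, and at 114831014 and 115226219. PQR/PQR replicate 2 had 1, at 115121865. None of the 7 had an insertion or MH above 3 bp. A further 3 lay up to 4 Mb away, 21 lay from 4 to 50 Mb away and 5 farther. Both strands were present near and far, with 22 preys on the plus and 14 on the minus strand.

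The rest of the PQR/PQR pool held 16 chromosome 12 junctions. In 5 of them the bait itself was aligned to another chromosome, which was the case for 0 of the 320 library junctions. Of the 11 others, 7 lay within 4 Mb of the bait, all above it, between 115276617 and 117974094.

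**Figure D3:**
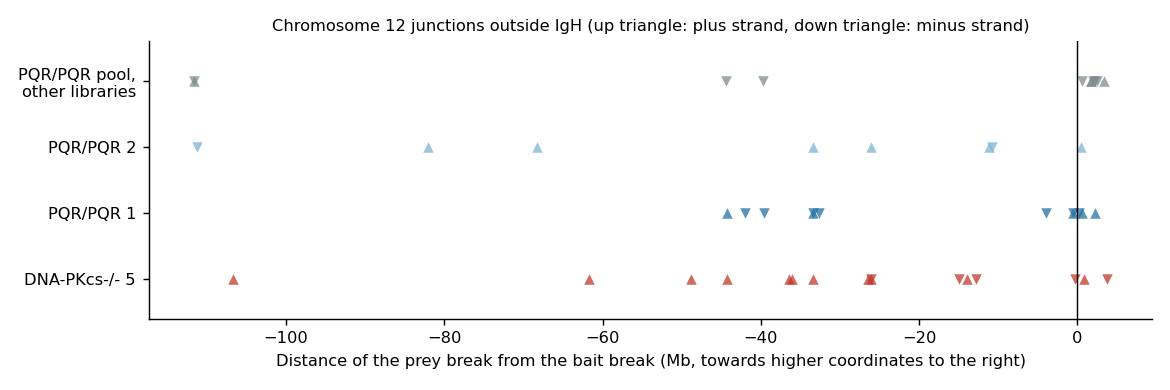
Distance in Mb of each chromosome 12 prey break outside IgH from its bait break, by library and for the rest of the PQR/PQR pool (11 junctions with the bait on chromosome 12). Triangles point up for plus-strand and down for minus-strand preys, and the 36 library junctions spread from within 1 Mb to over 100 Mb on the lower side.

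Distances between distinct junctions on the same chromosome were compared over the 3 libraries. There were 34 pairs at most 10 kb apart, against 3 pairs between 10 and 100 kb and 70 pairs between 100 kb and 1 Mb, in bins of unequal width. Different libraries were joined by 25 of the 34 pairs, 3 of the 3 and 47 of the 70. Farther apart, at 1 to 2 Mb, it was 31 of 46, so the closest pairs were near the share of distant ones. Without tracts the numbers were 30, 1 and 45. By the rule of 1 Mb, 35 loci held junctions of at least 2 libraries or at least 3 junctions. Of these, 5 were seen in all 3 libraries, at chr7:131815400-132699740, chr12:81211092-82046902, chr12:114096508-115438669, chr14:20852252-21371935 and chrX:131096975-131795958, the last 2 with 2 of 3 and 3 of 3 tracts. The locus chr12:114096508-115438669 holds the 7 junctions within 1 Mb of the bait break. They lie on both sides of IgH, with the bait between them, and only the rule of 1 Mb joins them into a locus. With a limit of 10 kb, chosen after the data had been seen, 11 loci remained, and these are described next.

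Of the 11, 6 held no tract and no mostly lower-case prey, with 20 junctions in all, 8 from DNA-PKcs-/- replicate 5, 8 from PQR/PQR replicate 1 and 4 from PQR/PQR replicate 2. Of these 20 junctions, 15 had MH of 1 to 3 bp, 2 were direct, 1 had an insertion and 2 had MH of 4 bp or more, while 0 had MH of 8 bp or more. Their median prey was 137 bp. Of the 212 other junctions without tracts, 107 had MH of 4 bp or more (50.5%) and 56 had MH of 8 bp or more, and the median prey was 101 bp. These shares are given without a test, since the loci were picked from the same junctions.

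The locus with most junctions was chr7:132696145-132699740, with 5 junctions over 3595 bp, 1 from PQR/PQR replicate 2 and 2 from each other library. The 4 lowest preys were on the minus strand and the highest on the plus strand. Their reads are shown because no 2 shared a prey break.
PQR/PQR replicate 2, chromosome 7 at 132696145, minus strand: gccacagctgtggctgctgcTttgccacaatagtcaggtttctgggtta
DNA-PKcs-/- replicate 5, chromosome 7 at 132696711, minus strand: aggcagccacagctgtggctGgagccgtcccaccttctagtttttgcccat
DNA-PKcs-/- replicate 5, chromosome 7 at 132697168, minus strand: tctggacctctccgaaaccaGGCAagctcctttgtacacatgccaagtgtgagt
PQR/PQR replicate 1, chromosome 7 at 132697430, minus strand: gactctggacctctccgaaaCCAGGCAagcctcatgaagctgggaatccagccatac
PQR/PQR replicate 1, chromosome 7 at 132699740, plus strand: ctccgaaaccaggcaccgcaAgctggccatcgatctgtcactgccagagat

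MH here was 1, 1, 4, 7 and 1 bp in the order of the reads, and the capitals of the reads with 4 and 7 bp come from the first capital stretch of the bait. No gene is named for this locus, since no annotation in mm9 was used.

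The locus with 4 junctions lay at Zfp36l1, which encodes an RNA-binding protein that speeds the decay of messenger RNAs with AU-rich elements and acts in B cell development. Its name comes from the prey at 81213834 of PQR/PQR replicate 1, whose last part matched 53 bases of the RefSeq promoter window of Zfp36l1 (GRCm38.p6, 250 bases before to 50 bases after the gene's start) and of no other gene. This gene was named after its match had been seen, because the match was not in the first 20 prey bases. Along the gene from this start, the breaks lay at 2908, 1499, 166 and -2021 bp, the last thus before it, in a gene of 5254 bp in the RefSeq table. There was 1 junction from DNA-PKcs-/- replicate 5, 2 from PQR/PQR replicate 1 and 1 from PQR/PQR replicate 2, with MH of 2, 1, 1 and 2 bp and preys of 133 to 298 bp.
DNA-PKcs-/- replicate 5, chromosome 12 at 81211092, plus strand: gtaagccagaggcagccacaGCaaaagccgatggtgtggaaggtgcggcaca
PQR/PQR replicate 1, chromosome 12 at 81212501, minus strand: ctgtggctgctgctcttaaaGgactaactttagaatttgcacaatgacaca
PQR/PQR replicate 1, chromosome 12 at 81213834, plus strand: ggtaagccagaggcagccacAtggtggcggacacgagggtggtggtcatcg
PQR/PQR replicate 2, chromosome 12 at 81216021, plus strand: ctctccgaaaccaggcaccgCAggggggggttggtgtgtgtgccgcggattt

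The end of the window follows, with the matched bases in capitals, in the direction of the gene.
Zfp36l1 promoter, bases 233 to 300 of 300: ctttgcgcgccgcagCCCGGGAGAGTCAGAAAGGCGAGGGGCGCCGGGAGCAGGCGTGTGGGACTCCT

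A second chromosome 12 locus, chr12:88539199-88540260, held 2 junctions of DNA-PKcs-/- replicate 5 on opposite strands, 361 bp apart, and 1 of PQR/PQR replicate 2. Their MH was 2, 1 and 2 bp.
DNA-PKcs-/- replicate 5, chromosome 12 at 88539199, plus strand: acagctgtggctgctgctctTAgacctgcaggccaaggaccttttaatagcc
DNA-PKcs-/- replicate 5, chromosome 12 at 88539560, minus strand: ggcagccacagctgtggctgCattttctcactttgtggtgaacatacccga
PQR/PQR replicate 2, chromosome 12 at 88540260, plus strand: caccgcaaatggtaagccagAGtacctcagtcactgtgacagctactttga

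On chromosome 6, the locus chr6:70674015-70674653 held 1 junction of DNA-PKcs-/- replicate 5 and 2 of PQR/PQR replicate 1, all on the minus strand. The 2 breaks of PQR/PQR replicate 1 were 2 bp apart but had different bait ends, one with 4 inserted bases and the other with MH of 1 bp. The locus chr6:122505324-122508445 held 2 junctions of PQR/PQR replicate 1 and 1 of DNA-PKcs-/- replicate 5, with MH of 1 and 3 bp and a direct join.
DNA-PKcs-/- replicate 5, chromosome 6 at 70674015, minus strand: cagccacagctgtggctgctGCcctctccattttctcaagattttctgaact
PQR/PQR replicate 1, chromosome 6 at 70674651, minus strand: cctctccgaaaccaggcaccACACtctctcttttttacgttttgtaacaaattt
PQR/PQR replicate 1, chromosome 6 at 70674653, minus strand: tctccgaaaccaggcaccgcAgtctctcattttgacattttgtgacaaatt
PQR/PQR replicate 1, chromosome 6 at 122505324, plus strand: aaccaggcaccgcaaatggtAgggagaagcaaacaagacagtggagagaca
DNA-PKcs-/- replicate 5, chromosome 6 at 122505722, plus strand: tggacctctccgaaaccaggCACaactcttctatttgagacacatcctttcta
PQR/PQR replicate 1, chromosome 6 at 122508445, minus strand: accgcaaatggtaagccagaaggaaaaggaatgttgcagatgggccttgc

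The sixth locus, chr16:19062656-19063975, held a direct join of PQR/PQR replicate 2 and a junction of DNA-PKcs-/- replicate 5 with MH of 2 bp, both on the minus strand.
PQR/PQR replicate 2, chromosome 16 at 19062656, minus strand: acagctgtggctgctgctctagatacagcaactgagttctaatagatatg
DNA-PKcs-/- replicate 5, chromosome 16 at 19063975, minus strand: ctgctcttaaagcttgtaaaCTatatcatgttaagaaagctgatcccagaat

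**Figure D4:**
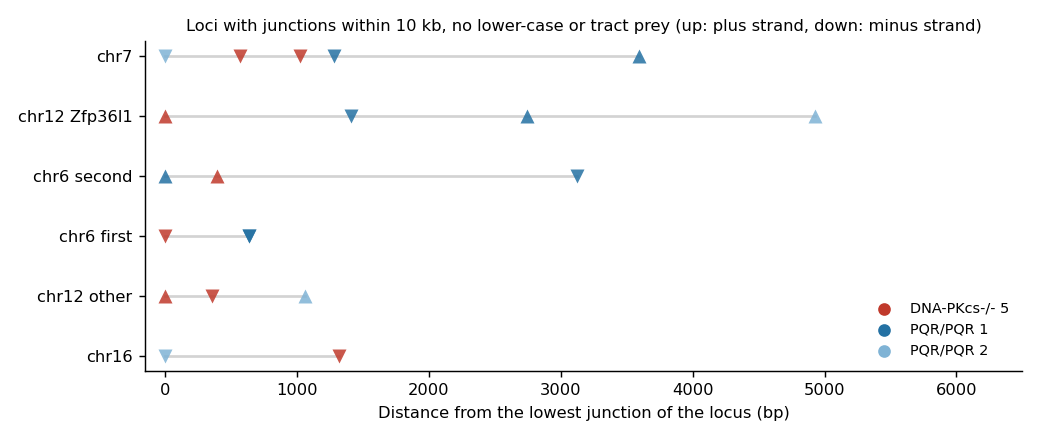
The 20 junctions of the 6 loci as distance in bp from the lowest junction of each, coloured by library, with triangles up for plus-strand and down for minus-strand preys. The junctions spread over 638 to 4929 bp, and each locus holds a junction of DNA-PKcs-/- replicate 5 and at least 1 of a PQR/PQR library. Loci were kept only with junctions of at least 2 libraries or at least 3 junctions, so sharing between libraries follows largely from this rule.

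The other 5 loci within 10 kb were of another kind. Pyrimidine or purine tracts made 3 of them, near base 96480114 of chromosome 11 and at both of the shared breaks given last. Mostly lower-case preys were found at chr2:98506812-98507061, in both junctions, and at chr12:70398183-70400665, in 1 of 2.

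On chromosome X at 131795958, 2 junctions of DNA-PKcs-/- replicate 5 and 4 of PQR/PQR replicate 1 shared a single break and a 27 bp pyrimidine tract behind 5 to 19 inserted bases. For 2 of the bait ends, the junctions were identical in both libraries. Reads of this locus are shown because the run of the insertion goes on into the prey.
PQR/PQR replicate 1, chromosome X at 131795958, plus strand: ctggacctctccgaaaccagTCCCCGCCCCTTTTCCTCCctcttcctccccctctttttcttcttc
DNA-PKcs-/- replicate 5, chromosome X at 131795958, plus strand: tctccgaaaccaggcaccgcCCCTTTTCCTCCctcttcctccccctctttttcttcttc

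Few preys could be placed in promoters by sequence. The first 20 prey bases occurred in a RefSeq promoter window in 15 of 320 preys (32851 windows of 27025 genes), and in 6 of 320 on the prey's own chromosome. For Rin3 and Gm26885 the match was to 1 gene alone.

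The prey of the direct join of PQR/PQR replicate 2 at base 103521617 of chromosome 12 matched the promoter of Rin3, which encodes a guanine nucleotide exchange factor of Rab5 GTPases, over all of its 60 bp. The break lay at -234 bp from the gene's start, and the prey ran in the direction of the gene. The matched bases are in capitals.
Rin3 promoter, bases 2 to 91 of 300: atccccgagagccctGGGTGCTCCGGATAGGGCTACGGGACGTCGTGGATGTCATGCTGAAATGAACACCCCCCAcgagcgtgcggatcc

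A prey of DNA-PKcs-/- replicate 5 at base 29628605 of chromosome 17 matched the window of the long non-coding RNA gene Gm26885 over 135 bases, against the direction of that gene. In the RefSeq table the whole window lies inside Pim1, which encodes a serine/threonine kinase, is an oncogene, and is a known off-target of AID. The break lay at -116 bp from the start of Gm26885, and the matched bases are in capitals.
Gm26885 promoter, bases 1 to 150 of 300: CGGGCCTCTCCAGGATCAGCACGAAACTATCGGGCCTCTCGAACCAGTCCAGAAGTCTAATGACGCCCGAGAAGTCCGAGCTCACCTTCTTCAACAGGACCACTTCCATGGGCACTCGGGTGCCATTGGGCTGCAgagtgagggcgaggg

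Few junctions were repeated. Lines at a break and strand already listed numbered 2 of 106, 6 of 115 and 1 of 99, and 1 line in all repeated the bait end as well. The libraries of the shared run, DNA-PKcs-/- replicate 5 and PQR/PQR replicate 1, had in common 2 prey breaks outside IgH, the tract on chromosome X and one at base 7692889 of chromosome 18, and the other pairs of libraries shared 0. In Sγ1 and Sε the 3 pairs shared 26, 10 and 40 prey breaks. At the chromosome X break, PQR/PQR replicate 1 had baits of 32, 39, 43 and 46 bp with 19, 12, 8 and 5 inserted bases. DNA-PKcs-/- replicate 5 had baits of 39 and 46 bp with 12 and 5. Bait and insertion together thus had a constant length. This also held at base 7692889 (45 with 2 bp, 33 with 14 bp). It did not at base 44588329 of chromosome 8, where baits of 31 bp had 29 and 0 inserted bases. Whether such lines are separate joins was not tested.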

How the data were processed

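Junctions were read from the deposited result sheets. Per the submitters' processing notes, the authors used Bowtie2 and mm9, and no further setting is known from the labels or files. The deposited values are junction counts per class and library, and lists with 1 line per junction, which carry no unique molecular identifiers. From the lists, prey length, MH or insertion, strand and the lower-case share of the bases at the prey break were computed. Of the 370 counted junctions, 320 were used from the lists, and the other 50 lines were not used here.

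Shares carry 95% Wilson intervals, which cover counting error only, and a count of 0 allows 3 counts of the total. Two-sided Fisher's exact and exact binomial tests were adjusted by Benjamini-Hochberg over 24 tests between and 15 within libraries. A difference between libraries was called where adjusted p was under 0.05 in 1 direction for DNA-PKcs-/- replicate 5 against both PQR/PQR libraries, which says nothing about genotypes, and one within libraries where it was so in all 3. Simulated data were used to try the rule between libraries with unadjusted p only, and the rule within libraries was not simulated. The members and lists were chosen with earlier results of these data known. Tracts, short baits, MH of 8 bp or more, AGCT, the window of 10 kb and the chromosome 12 classes were added after the data had been seen, with 36 tests adjusted together. These 36 include tests on tracts, AGCT and insertions without tracts that are not given above. Some of those had very small p, which can make the adjusted p of the others smaller. Loci were named where they held junctions of at least 2 libraries or at least 3 junctions within 1 Mb, and genes only by a match of the prey to a RefSeq promoter (GRCm38.p6), with Zfp36l1 named after its match was seen. Python 3.11.15, numpy 2.4.6, pandas 2.3.3 and scipy 1.17.1 were used.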

Additional observations from a re-analysis of the deposited data

Results flagged for a closer look

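The difference in direct joins between junctions outside and within IgH was 3.066 percentage points in DNA-PKcs-/- replicate 5, and -17.59 and -22.01 points in PQR/PQR replicates 1 and 2. The DNA-PKcs-/- library went one way, by a difference that did not pass (Fisher's exact test, adjusted p = 0.41), and both PQR/PQR libraries the other. The contrast between libraries was not tested. Direct joins were 12.1%, 25.8% and 26.1% within IgH in the 3 libraries, and 15.2%, 8.20% and 4.07% outside it. Of the 19 direct joins counted outside IgH in the DNA-PKcs-/- library, 12 were listed.

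A separate sheet of long insertions or MH, which no comparison above used, held 6 of 8 lines outside the IgH span in DNA-PKcs-/- replicate 5 and 12 of 14 in PQR/PQR replicate 1. Their insertions were 30 to 79 bp and 31 to 86 bp long, 4 and 7 of the preys were tracts, and 0 had a prey of 50 bp or more. The single line of PQR/PQR replicate 2 in that sheet, also outside the span, had MH of 21 bp and a prey of 50 bp or more.

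In the PQR/PQR pool outside the libraries, 5 of 16 lines outside IgH had the bait aligned to a chromosome other than 12.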

How the results depend on the processing

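Of 104 alternative values of tested differences, 79 kept their direction and their side of the threshold. MH of 4 bp or more, outside against within IgH, passed in every alternative run. However, without tracts and with preys of 50 bp or more, only listed junctions outside IgH were filtered, and IgH counts were kept whole. The MH differences of 35.68 and 36.85 percentage points there are thus not like for like with the reported 18.59. The insertion values of those runs have the same limit and lack the insertions that were not listed. Values below are percentage points, DNA-PKcs-/- minus PQR/PQR or outside minus within IgH, and the cause of each change was not tested. Leaving out 1 library gave -11.21 to 7.588 for the share outside IgH, 7.003 to 11.13 for direct joins, -0.006557 to 7.584 for MH of 4 bp or more, -32.08 to -3.849 for insertions, -6.300 to 9.396 for the plus strand and -10.01 to 6.727 for preys under 50 bp. Within libraries it gave -19.80 (without DNA-PKcs-/- replicate 5) to -7.261 for direct joins and -1.868 to 5.980 for the plus strand. Without tracts, the share outside IgH was 3.675, MH of 4 bp or more -4.829, insertions 1.602 and preys under 50 bp 8.519 between libraries. That share was taken over listed junctions without those in Sμ, so it is not the share of all junctions given above. Within libraries, insertions were then -4.573 and preys under 50 bp 10.37. With preys of 50 bp or more alone, the share outside IgH, again without Sμ junctions in its total, was 0.5036. The plus strand was then -1.292 and insertions within libraries -1.964. Without chromosome 12, the plus strand was -0.9122 and preys under 50 bp 0.1097. With the DNA-PKcs-/- pool, the share outside IgH was -11.23 and MH of 4 bp or more -0.9904, and with the PQR/PQR pool the share was 8.582 and insertions -18.18. Mean insertion length in PQR/PQR replicate 2 went from 14.22 to 6.400 bp without tracts. The 35 loci became 14 at 100 kb, 11 at 10 kb and 19 with preys of 50 bp or more, and the 10 chromosome 12 junctions within 4 Mb became 17 with the pool lines. No paired analysis was possible because the genotypes share no replicate number. Depth limits chromosome 12, with 8 to 16 junctions a library.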
